A study of Homo sapiens with 2 samples.

Results

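The keratin genes are the 55 of 60616 listed genes whose symbol is KRT followed by a number and, in some, the letter A, B or C, so that pseudogenes, antisense genes and keratin-associated proteins are left out. They comprise 29 type I and 26 type II keratins. Their transcripts were measured by RNA sequencing in HSC-3, a long-established line of human squamous carcinoma cells from the tongue, in 1 library of cells given 0.1% DMSO as the vehicle and 1 of cells given FIN56 at 1 µM for 48 h, a time that the labels state for FIN56 alone. FIN56 triggers ferroptosis, a form of cell death driven by the peroxidation of lipids, and the study chose a sublethal dose to see which genes respond to ferroptotic stress. With 1 library per condition, no value has a replicate check and no test between conditions could be made, and fewer cells of a type and less RNA per cell cannot be told apart.

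Keratins are the intermediate filament proteins of epithelial cells. A filament is built from pairs of 1 acidic type I chain and 1 basic type II chain, and the pair that a cell makes follows its place in the epithelium. KRT5 and KRT14 form the filaments of the proliferating basal layer of stratified epithelia, KRT8 and KRT18 those of simple epithelia, and KRT6, KRT16 and KRT17 are made in wounded or hyperproliferative epithelium, while KRT1 and KRT10 replace the basal pair as keratinocytes of the skin differentiate and KRT4 and KRT13 do so in the lining of the mouth. Squamous cell carcinomas often make simple keratins beside the stratified ones.

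The libraries held 70184517 (DMSO) and 73062209 (FIN56) expected counts, estimates in which RSEM divides a read that fits several genes between them. Levels are given as FPKM, the deposited value scaled for transcript length and library depth, and a fold change is the FPKM of the FIN56 library divided by that of the DMSO library. The range beside a fold change is a 95% exact (Clopper-Pearson) interval of the ratio of rounded expected counts scaled by the library totals. It belongs to the counts, so an FPKM ratio can lie slightly outside it where the effective length differs between the libraries. It covers counting error only, compares these 2 libraries and not the conditions, and takes no account of the division of reads between similar genes. A fold change of 1.5 or more, or of 1/1.5 or less, was called. The epithelial label of the line was met by its markers, since all 10 of 10 epithelial markers had an FPKM of at least 1 in the DMSO library, from 4.84 to 193.9, and none passed a threshold. The 3 highest were ITGB4 (193.9 FPKM with DMSO and 131.55 with FIN56), ITGA6 (181.92 and 211.1 FPKM) and EPCAM (111.32 and 160.11 FPKM). The fold change of ITGB4, 0.678, was just short of the lower threshold, while its count interval of 0.643 to 0.660 lay past it. That of EPCAM was 1.44, just short of the upper one. The leukocyte marker PTPRC, the T cell marker CD3E and the B cell marker MS4A1 had no count in either library, and the summed FPKM of the 5 immune markers was 3.64 and 5.15, nearly all of it CD14. The summed level of 4 endothelial markers was 0.08 FPKM in both libraries, and that of 4 melanocyte markers was 1.32 and 1.25 FPKM. The 7 fibroblast markers summed to 5.26 and 3.03 FPKM. COL1A1, a chain of type I collagen, had 4.25 and 2.19 FPKM, past the lower threshold, whereas COL1A2, the other chain, had no count. Any part of other cell types in the keratin values was not tested.

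The DMSO library expressed a mixture of basal, simple and stress keratins. The suprabasal keratins of skin, nearly all KRT10, held 1.22% of the summed keratin FPKM, and those of mucosa had 0.11 FPKM together. KRT5 was the most abundant keratin at 2078.49 FPKM, which placed it at rank 38 of all genes, and its partner KRT14 followed at 1410.11 FPKM. The simple pair came next, with KRT8 at 790.86 and KRT18 at 758.64 FPKM, before the stress keratins KRT17 at 407.84 and KRT6A at 341.22 FPKM. KRT19, a small type I keratin of simple and ductal epithelia, had 280.98 FPKM. KRT10, the type I keratin of differentiating epidermis, had 75.42 FPKM, and KRT15, a type I keratin of basal cells, had 68.6 FPKM. KRT80, a type II keratin of several epithelia, had 27.67 FPKM.

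Below these, KRT7 had 7.74, KRT6B 6.68, KRT16 3.21, KRT6C 1.39 and KRT9 0.98 FPKM in the DMSO library. KRT7 and KRT6B could not be ordered, as their counting intervals overlapped, and every other neighbouring pair in this order was separated by more than counting error. In all, 14 keratins had an FPKM of at least 1 with DMSO and 15 with FIN56, the added one being KRT9. The order of the first 8, from KRT5 to KRT10, was the same in both libraries. In the FIN56 library KRT80 stood above KRT15, and the interval of KRT6C overlapped those of KRT16 and KRT9.

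Of the 55 keratins, 33 had a count in at least 1 library and 22 had none in either. The keratins without a count included KRT1, the type II partner of KRT10, KRT4, the type II keratin of the mucosa, and KRT20, a keratin of intestinal epithelium. A count of 0 allows up to 3 counts, or 0.0427 CPM with DMSO and 0.0411 CPM with FIN56. KRT10 therefore stood at 75.42 FPKM with no count of KRT1 beside it. KRT13, the mucosal partner of KRT4, had 9 counts with DMSO and 3.49 with FIN56.

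**Figure D1:**
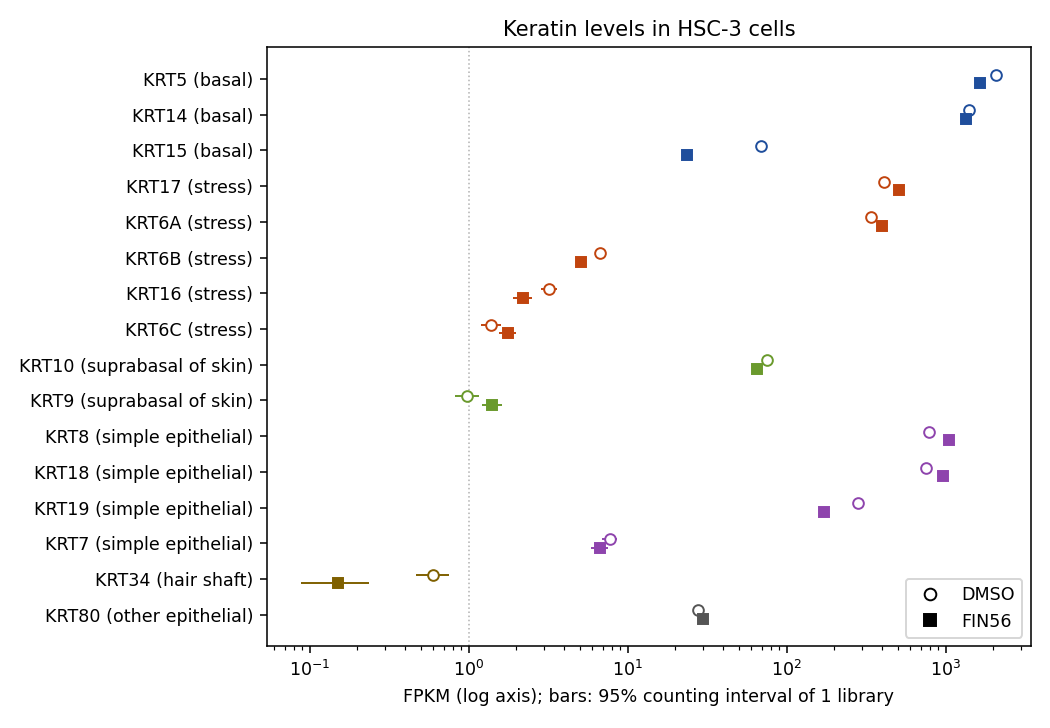
Level of the 16 keratins described by name, in FPKM on a log axis, grouped by the role of each keratin, with open circles for the DMSO library and filled squares for the FIN56 library. Bars are 95% counting intervals of 1 library. The marks of KRT15, KRT19 and KRT34 lie farthest apart, and KRT5 is the highest in both libraries at 2078.49 and 1646.62 FPKM.

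After FIN56, the summed keratin level was close to that of the vehicle, while its composition differed. The 55 keratins summed to 6261.55 FPKM with DMSO and 6212.6 with FIN56, a ratio of 0.992. This ratio lay between 0.982 and 1.01 under other scalings, on both sides of 1, so no direction is given for the sum. Keratins held 0.996% of the expected counts in the DMSO library (95% exact binomial interval 0.993% to 0.998%) and 0.979% in the FIN56 library (0.977% to 0.982%).

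The 3 basal keratins held 56.8% of the summed keratin FPKM with DMSO and 48.6% with FIN56. The 5 simple keratins held 29.4% and 35.1%, and the 5 stress keratins 12.1% and 14.7%. The share of the basal keratins was thus lower in the FIN56 library and the shares of the other 2 abundant groups were higher. As fold changes, the summed FPKM was 0.850 for the basal group, 1.19 for the simple group and 1.20 for the stress group, none of them past a threshold. The skin suprabasal group, nearly all KRT10, went from 76.41 to 66.6 FPKM, a ratio of 0.872. Type I keratins summed to 3007.17 and 3081.49 FPKM and type II keratins to 3254.38 and 3131.11 FPKM, so that the level of type I over type II was 0.924 with DMSO and 0.984 with FIN56.

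**Figure D2:**
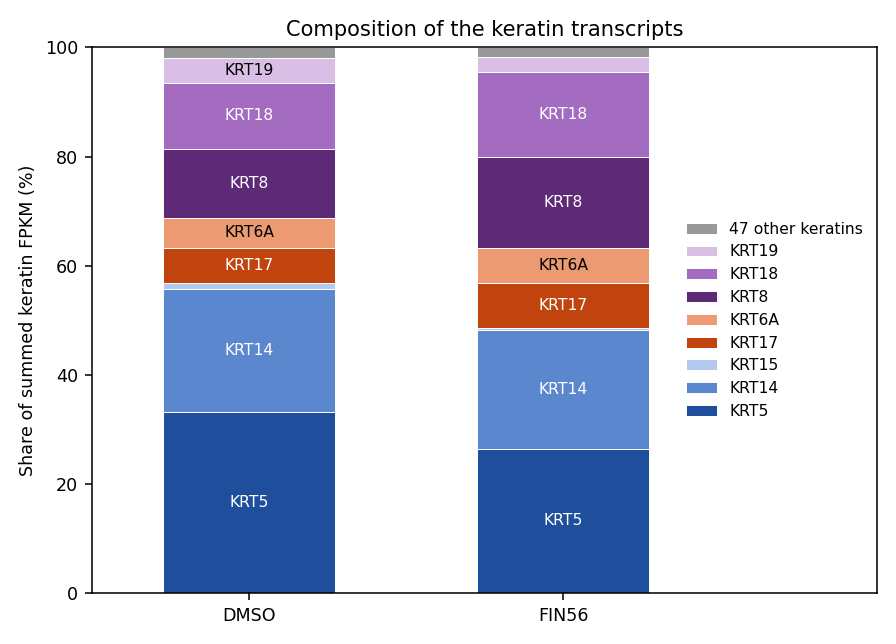
Share of the summed keratin FPKM in each library (percent), stacked by keratin, with the basal keratins KRT5, KRT14 and KRT15 in blue, the stress keratins KRT17 and KRT6A in orange, the simple keratins KRT8, KRT18 and KRT19 in purple, and the 47 other keratins, less abundant stress and simple ones included, in grey. The basal blocks fill 56.8% of the DMSO bar and 48.6% of the FIN56 bar.

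Of the 55 keratins, 16 had 50 or more expected counts over the libraries and an FPKM above 0 in each. None of these 16 had a fold change of 1.5 or more, against 6.84% of the 15770 genes that met the same criteria. KRT86, described with the hair keratins, missed the criterion by less than 1 count at a ratio of 3.86. A fold change of 1/1.5 or less was found for 3 of the 16, or 18.8%, namely KRT15, KRT19 and KRT34, against 10.1% of all genes. With 3 genes among 16, the difference between these shares is not read as a result about the keratins. The median log2 fold change was -0.14 over the 16 keratins and 0.020 over all genes tested. Of the 16 ratios, 9 were below 1 and 7 above, and the counting interval of each left out 1, as did that of 67.9% of all genes tested. The calls nearest to the threshold were KRT19 at 0.615, just past it, and KRT16 at 0.682 and KRT9 at 1.44, just short of it.

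**Figure D3:**
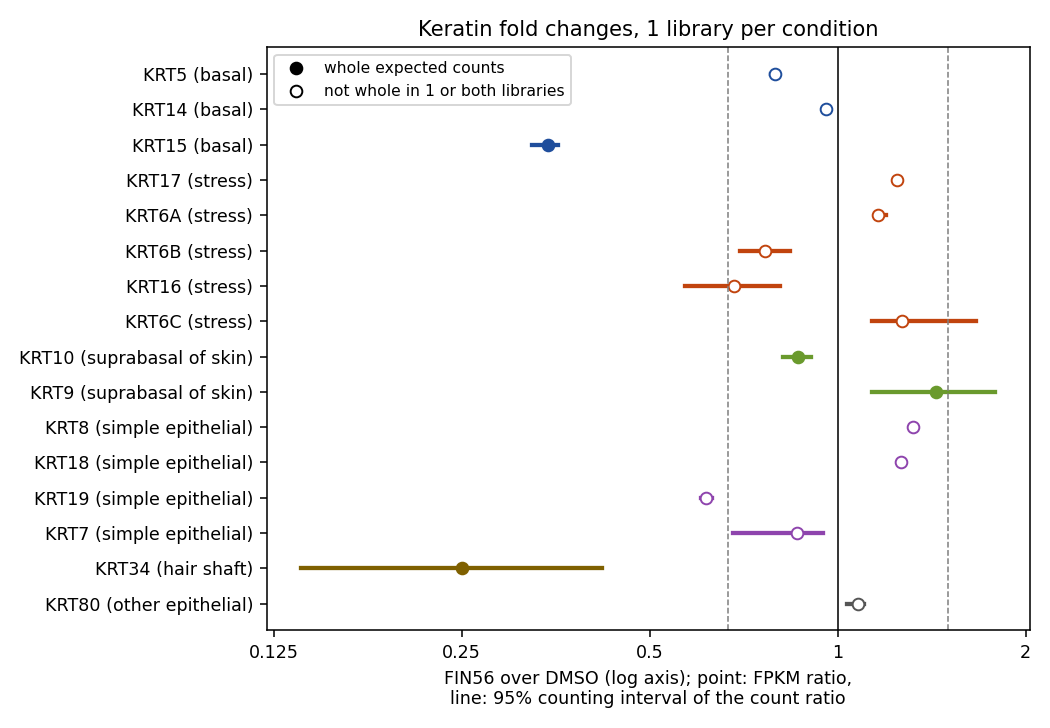
Fold change of the 16 keratins, FIN56 over DMSO, on a log axis, with the FPKM ratio as a point and the 95% counting interval of the count ratio as a line. Dashed lines mark 1.5 and 1/1.5, and open points mark keratins whose expected counts were not whole. KRT15, KRT19 and KRT34 lie left of the lower dashed line and no keratin lies right of the upper one.

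Among the basal keratins, KRT15 stood apart from KRT5 and KRT14. KRT15 had 6553 expected counts and 68.6 FPKM in the DMSO library and 2317 counts and 23.55 FPKM in the FIN56 library. Its fold change was 0.343 (0.324 to 0.356), and only 0.761% of all genes tested had a lower one. Its counts were whole in both libraries, so that no fraction of a read was assigned to it. KRT15 lies on chromosome 17 of GRCh38, from 41513745 to 41522529 on the minus strand.

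KRT5 had 270010 counts with DMSO and 220876 with FIN56, that is 2078.49 and 1646.62 FPKM. Its fold change of 0.792 (0.781 to 0.790) was short of the threshold, but its level fell by 431.87 FPKM, the largest difference in FPKM of any keratin. KRT14 had 138966 and 138135 counts, 1410.11 and 1351.69 FPKM, with a fold change of 0.959 (0.948 to 0.962). The level of KRT5 relative to its partner KRT14 was thus 1.47 with DMSO and 1.22 with FIN56. The level of KRT15 relative to KRT14 was 0.0486 and 0.0174. Ratios within a library do not depend on the scaling between libraries.

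The simple keratins differed in direction. KRT8, the type II chain of the simple pair, had 790.86 FPKM with DMSO and 1044.6 with FIN56, a ratio of 1.32 (1.32 to 1.34). KRT18, its type I partner, had 758.64 and 957.01 FPKM, a fold change of 1.26 (1.25 to 1.27). The partners stayed in nearly the same proportion, with KRT8 over KRT18 at 1.04 and 1.09. Summed, the pair had 1549.5 and 2001.61 FPKM, a ratio of 1.29, below the threshold. The basal pair KRT5 and KRT14 summed to 3488.6 and 2998.31 FPKM, a ratio of 0.859. Set against each other within a library, KRT8 over KRT5 was 0.380 with DMSO and 0.634 with FIN56, and KRT18 over KRT14 was 0.538 and 0.708.

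KRT19, in contrast, was lower in the FIN56 library, with 24358 counts and 280.98 FPKM against 15641 counts and 172.76 FPKM. Its fold change was 0.615 (0.605 to 0.629), past the threshold. The level of KRT19 relative to KRT18, the other abundant type I simple keratin, was 0.370 with DMSO and 0.181 with FIN56. KRT7, a type II keratin of ducts and glands, had 7.74 and 6.67 FPKM, a fold change of 0.862 (0.679 to 0.946). KRT20 had no count.

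The stress keratins also divided by gene. KRT17 had 407.84 FPKM with DMSO and 507.19 with FIN56, a ratio of 1.24 (1.23 to 1.26), and KRT6A had 341.22 and 395.98 FPKM, a fold change of 1.16 (1.16 to 1.19). The less abundant KRT6B had 6.68 and 5.11 FPKM (0.765, interval 0.698 to 0.840) and KRT16, the usual type I partner of KRT6, had 3.21 and 2.19 FPKM (0.682, interval 0.570 to 0.807). KRT6C had 1.39 and 1.76 FPKM, a fold change of 1.27, whereas its counts of 188 and 269 gave a ratio of 1.37 (1.14 to 1.66). The effective length that RSEM assigned to KRT6C was 1.08 times as long in the FIN56 library. No stress keratin passed a threshold. KRT17 was thus the main type I stress keratin of these cells, and KRT16 a minor one beside KRT6A.

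Of the suprabasal keratins, only KRT10 and KRT9 had enough counts to be called, and neither passed a threshold. The others had few counts or none. KRT10 had 3103 and 2777 counts, 75.42 and 65.19 FPKM, with a fold change of 0.864 (0.816 to 0.905). KRT9, a keratin of the thick skin of palms and soles, had 133 and 197 counts, 0.98 and 1.41 FPKM, with a fold change of 1.44 (1.14 to 1.79). KRT80 had 27.67 and 29.83 FPKM, a fold change of 1.08 (1.03 to 1.10).

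The hair shaft keratins were present only as traces, and those of type I and type II differed in direction. KRT34, a type I keratin of the hair cortex, had 70 counts with DMSO and 18 with FIN56, 0.6 and 0.15 FPKM. Its fold change was 0.25 (0.138 to 0.419), the lowest of the 16, and 0.247% of all genes tested had a lower one. The 11 type I hair shaft keratins summed to 129.77 and 42 counts, a ratio of 0.310 (0.214 to 0.443), 70 of the counts with DMSO being those of KRT34. The 6 type II hair shaft keratins summed to 22.84 and 52.31 counts, a ratio of 2.17 (1.31 to 3.72). Most of that came from KRT86, a type II keratin of the hair cortex singled out after its values were seen, which had 10.84 and 38.83 counts and 0.07 and 0.27 FPKM, a fold change of 3.86 (1.71 to 7.37). The sum of its counts, 49.67, left it just outside the 16. KRT86 overlaps KRT7 on the same strand and spans KRT81 on the other, and its counts were not whole. The coding sequences of KRT81 and KRT86 were 92.7% identical, with a longest identical run of 605 bases, so the values of KRT86 alone are uncertain. Summed, KRT81 and KRT86 had 21.84 and 52.31 counts, a ratio of 2.27 (1.36 to 3.93). The 17 keratins with a count outside the 16, KRT86 included, had at most 0.2 FPKM with DMSO and 0.27 FPKM with FIN56.

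The keratin genes lie in 2 clusters, with 27 on chromosome 12, all type II except KRT18, and 28 of type I on chromosome 17. KRT15 and KRT19 are neighbouring keratins on chromosome 17, KRT19 spanning 41523617 to 41528308 on the minus strand. KRT34, at 41377669 to 41382306 on the same strand, lies in the same run of keratins. Of the 12 consecutive keratins from KRT33A to KRT19, a run chosen after its values were seen, 10 had counts, of which 9 had fewer in the FIN56 library and 1 had the same number in both. The interval lay below 1 for 4 of the 10. Among all 30420 genes with a count in either library, 13386 had fewer counts with FIN56 and 5770 had an interval below 1, and since the run was chosen for its values nothing is read from the comparison. Without KRT15 and KRT19, the run held 137.77 counts with DMSO and 45.49 with FIN56, a ratio of 0.313 (0.219 to 0.441), and without KRT34 as well it held 67.77 and 27.49 counts, a ratio of 0.381 (0.235 to 0.604). The genes left in were seen when the run was chosen, so these ratios are no separate check of it. The 4 keratins that follow, KRT9, KRT14, KRT16 and KRT17, were mixed, 2 with more counts in the FIN56 library and 2 with fewer, and summed to a ratio of 1.02. Of the 12 keratins before the run, from KRT222 to KRT40, 3 had counts, and all 3 had fewer in the FIN56 library. They summed to 3119 and 2784 counts, nearly all of KRT10, a ratio of 0.857 (0.814 to 0.903). On chromosome 12 the simple pair KRT8 and KRT18 are neighbours on opposite strands whose annotated spans overlap, KRT8 from 52897187 to 52949954 and KRT18 from 52948871 to 52952906. The kit marks strand, but the strand setting of the counting is not given in the sources used here, so reads from their overlap could not be assigned by strand with certainty.

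**Figure D4:**
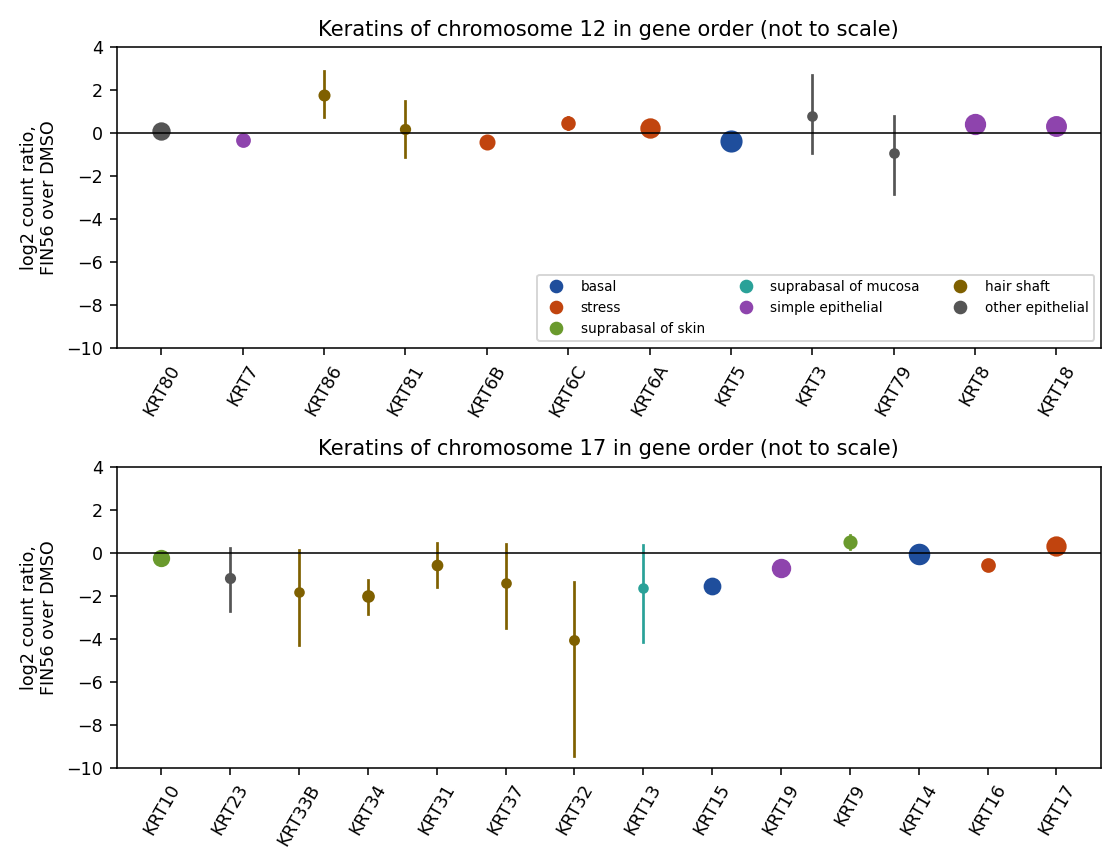
Log2 ratio of scaled expected counts, FIN56 over DMSO, for keratins with at least 10 counts in both libraries together, in gene order along chromosomes 12 and 17. Lines are 95% counting intervals, point size grows with counts and colour gives the role. On chromosome 17 the points from KRT33B to KRT19 lie below 0, as do those of KRT10 and KRT23 before them. KRT9, the next gene after KRT19, lies above 0.

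Several of these values depend on how reads were divided between near-identical genes. Of the 16 keratins, 12 had expected counts that were not whole (more than 0.005 from a whole number) in at least 1 library, and KRT10, KRT15, KRT9 and KRT34 had whole counts. The KRT6 genes are the closest relatives. The coding sequences of KRT6A and KRT6C were 97.9% identical, with 35 differences in 1695 aligned bases and a longest identical run of 349 bases. KRT6A and KRT6B were 97.5% identical, and KRT6B and KRT6C 98.5%. The 60 bases of exon 2 in which the 3 genes differ most are shown because they hold the positions by which a read can be assigned, with capitals at the 9 positions that differ in any of them (GRCh38, minus strand, coding bases 663 to 722, at chr12:52491555-52491614 for KRT6A, chr12:52450439-52450498 for KRT6B and chr12:52472099-52472158 for KRT6C).
KRT6A: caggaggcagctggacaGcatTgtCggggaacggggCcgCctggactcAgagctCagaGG
KRT6B: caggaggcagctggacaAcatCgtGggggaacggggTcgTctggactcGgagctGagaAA
KRT6C: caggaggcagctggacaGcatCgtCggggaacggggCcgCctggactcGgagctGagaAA
In this stretch KRT6A differs from KRT6B at 9 positions and from KRT6C at 5. In contrast, the first 60 coding bases, in exon 1, are the same in all 3 genes, shown once for KRT6A (chr12:52493129-52493188, minus strand), and a read from them could not be assigned by sequence.
KRT6A: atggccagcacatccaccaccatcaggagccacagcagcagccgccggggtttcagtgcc
The values of KRT6B and KRT6C are therefore uncertain beside KRT6A, which had 44053 counts with DMSO against 1033 of KRT6B and 188 of KRT6C. The summed counts of the 3 genes, which do not depend on their division among themselves, had a ratio of 1.17 (1.15 to 1.18), and their summed FPKM, which also depends on the effective length of each, was 349.29 and 402.85.

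KRT14, KRT16 and KRT17 form a second such group on chromosome 17. The coding sequence of KRT14 was 87.5% identical to that of KRT16 and 83.8% to that of KRT17. A stretch of 60 coding bases in exon 1 is shown because it is nearly the same in all of them (GRCh38, minus strand, at chr17:41586424-41586483 for KRT14 and chr17:41624192-41624251 for KRT17). KRT14 and KRT17 differ in it at 1 position, in capitals, and KRT16 is the same as KRT14.
KRT14: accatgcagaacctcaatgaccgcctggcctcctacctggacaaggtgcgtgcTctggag
KRT17: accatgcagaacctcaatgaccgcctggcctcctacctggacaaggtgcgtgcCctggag
KRT16 had 320 counts in the DMSO library beside 138966 of KRT14, and its values are likewise uncertain. The 3 genes summed to a ratio of 1.02.

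Pseudogenes drew reads as well. The table lists 148 keratin pseudogenes, 85 of them with a count, which together held 3833.81 counts with DMSO and 4687.77 with FIN56, 0.549% and 0.655% of the counts of the keratin genes. KRT8P3, a processed copy of KRT8, had the most, 2193.76 and 2927.53 counts, with a ratio of 1.28 beside 1.32 for KRT8 itself. Adding all KRT8 pseudogenes to KRT8 left the ratio at 1.32, and doing the same for KRT18 left it at 1.26. The sum for KRT16 moved more, since KRT16P6 alone held 813.66 and 833.8 counts, more than KRT16. With the pseudogenes named for it, KRT16 had an FPKM ratio of 0.949 in place of 0.682, and a count ratio of 0.904 (0.836 to 0.977). However, KRT14, with 138966 counts under DMSO, shares exact stretches of 50 bases with KRT16P4, KRT16P5 and KRT16P6. Stretches of 100 bases of KRT14 recur in KRT16P4 and KRT16P5, and those of KRT16 in neither. Whether reads of these pseudogenes belong to KRT16, to KRT14 or to neither was not tested.

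The share of a transcript that recurs elsewhere was measured as the share of its windows of 50 bases found without a mismatch in a transcript of another gene. It was 53.1% for KRT6C, 46.6% for KRT6B, 39.2% for KRT6A and KRT8, 35.3% for KRT18, 24.2% for KRT14, 21.8% for KRT16 and 17.4% for KRT17. For KRT5 it was 4.52%, for KRT19 1.79% and for KRT15 1.02%, and KRT10 and KRT9 shared none. With windows of 100 bases the share fell to 31.4% for KRT6C and 7.12% for KRT8, and to 0 for KRT18 and KRT15. Of the 3 keratins called lower, KRT15 and KRT19 thus had nearly unique sequence, whereas KRT34 shared 12.2% of its windows of 50 bases with KRT33B, KRT33A or KRT31.

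**Figure D5:**
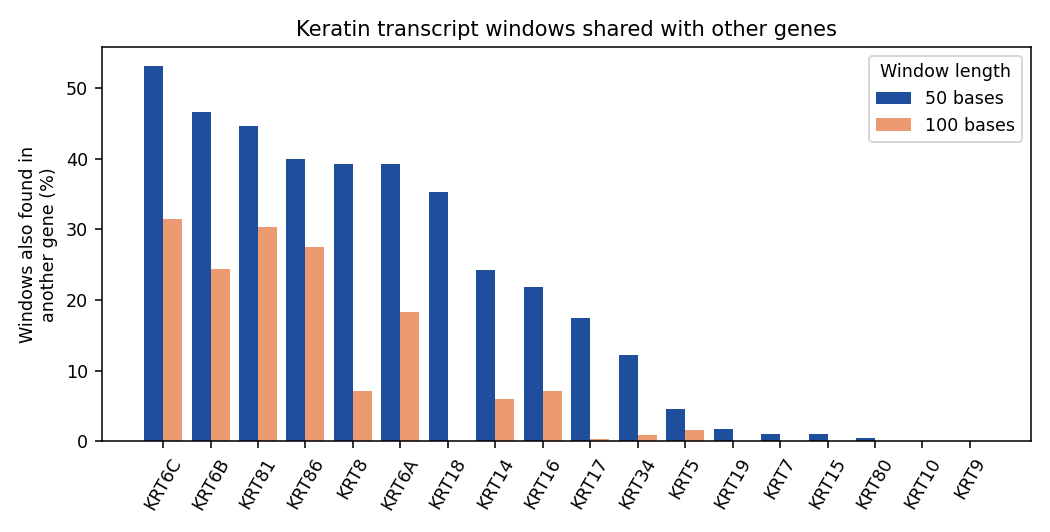
Share of windows of 50 or 100 bases of each keratin transcript (percent) that occur without a mismatch in a transcript of another gene, for the 16 keratins and the hair keratins KRT81 and KRT86. KRT6C is the highest at 53.1% for windows of 50 bases, and KRT10 and KRT9 are at 0.

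The genes that work with keratins were examined from a list of 14 plakins, desmosomal proteins and other keratin-binding proteins, all of which had at least 50 counts. Of the 14, 1 was called higher and none lower, beside 6.84% and 10.1% of all genes tested, so the calls are near the background, and the median log2 fold change was 0.061, beside 0.020 over all genes. The one was EPPK1, epiplakin, a keratin-binding plakin at a low level, with 0.18 FPKM with DMSO and 0.35 with FIN56, a ratio of 1.94. The 3 most abundant were JUP, plakoglobin, at 128.37 and 109.95 FPKM, PKP3, plakophilin 3, at 113.14 and 88.5 FPKM, and DSP, desmoplakin, which anchors keratin filaments at desmosomes, at 85.85 and 91.38 FPKM.

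Of 15 other intermediate filament genes, 8 met the criteria, of which 1 was called higher and 2 lower, beside 6.84% and 10.1% of all genes tested. VIM, vimentin, the intermediate filament of mesenchymal cells that carcinoma cells can also make, had 261.73 FPKM in the DMSO library, close to KRT19, and 169.67 in the FIN56 library, a fold change of 0.648 (0.638 to 0.660). NES, nestin, had 1.49 and 0.77 FPKM, a fold change of 0.517 (0.447 to 0.592). GFAP, the filament of astrocytes, had 0.21 and 0.4 FPKM, a fold change of 1.90 on 20.9 and 41.81 counts that were not whole. The nuclear lamins LMNA (248.29 and 256.09 FPKM) and LMNB2 (77.03 and 65.71 FPKM) were not called.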

How the data were processed

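The transcriptome of HSC-3 cells was measured in 1 DMSO and 1 FIN56 library, prepared with a stranded mRNA kit. The submitters' processing notes name FastQC 0.11.7, STAR 2.6.1a, RSEM 1.3.1 and DESeq2 1.26.0 with GRCh38; the methods of the study describe these steps for tumor samples, and are taken to hold here. The deposited expected counts are RSEM estimates and not normalized. The deposited FPKM and TPM are scaled for depth and effective length. The deposited rlog values have a log2 scale.

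The groups came from the treatment labels, and all 8 per-sample columns were matched by name. The FPKM ratio was the main measure, with thresholds of 1.5 and 1/1.5, over genes with at least 50 expected counts together. Intervals are exact and cover counting error only, as there was 1 library per condition. No molecular identifiers marked single molecules, so reads copied from the same molecule count as separate, and the intervals may be too narrow. The totals of 70184517 and 73062209 counts set their scaling. Keratins with an FPKM of at least 1 in either library were named, as were others with 50 counts that passed a threshold; from the other lists, genes past a threshold and the 3 highest in DMSO were named. The members and lists were chosen with earlier results of these data known. Gene positions and reference sequences came from GENCODE release 44 on GRCh38, in which all 55 keratins were found by identifier; coding sequences were aligned with mafft 7.526. Alternatives were TPM, rlog, library totals, edgeR 4.0.16 TMM and DESeq2 1.42.0 size factors on rounded counts, pseudocounts of 0.1 and 1 and other filters. Ratios and intervals were tested on simulated data with counting error only, the case that the intervals assume. This checked the computation, and not the spread between replicates or the division of reads between genes. Scripts ran in R 4.3.3 and Python 3.11.15 (scipy 1.17.1, numpy 2.4.6, matplotlib 3.10.9, pandas 2.3.3).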

Additional observations from a re-analysis of the deposited data

How the results depend on the processing

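No paired analysis was possible because there was 1 library per condition, and for the same reason no replicate could be left out. All 16 named keratins kept their direction under 7 alternatives of scaling, unit and pseudocount. KRT15 stayed at or below 1/1.5 in all 8 settings, KRT19 in 7 and KRT34 in 6. KRT34 was at 0.922 by rlog and at 0.719 with a pseudocount of 1. Abundant keratins were nearer to 1 by rlog too, with KRT19 at 0.821 in place of 0.615 and KRT8 at 1.15 in place of 1.32. The count of keratins at 1.5 or more, 0, became 2 of 29 with no filter on counts. With 10 counts in both libraries it was 1 of 19, beside 7.62% of all genes. With 50 rounded counts together it was 1 of 17, beside 6.84%. The count at 1/1.5 or less, 3, became 8 without a filter and 1 by rlog. It was 2 of 15 with an FPKM of 1 in either library, beside 8.69% of all genes. With a pseudocount of 1 it was 2 of 16, beside 4.22%, and over whole counts 2 of 4, beside 10.1%. A threshold of 2 in place of 1.5 left 2 of 16, beside 3.25%. All genes moved too: without a filter, 3583 of 24454 were at 1.5 or more (14.7%) and 4240 at 1/1.5 or less (17.3%), and by rlog 7 and 16 of 15770. The median log2 ratio, -0.14, became -0.040 by rlog, -0.21 without a filter, -0.061 with 10 counts in both libraries, with an FPKM of 1 in either or with 50 rounded counts, and -0.88 over the 4 keratins with whole counts. The summed ratio, 0.992, became 1.01 by TPM, 0.984 by totals, 0.982 by TMM, 1.01 by size factors and 1.00 by rlog. The filters on rounded and on whole counts were chosen after seeing the data. Where no construction shows it, the cause was not tested. At this depth a count of 0 allows a level of up to 0.0427 CPM.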

Other observations

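The keratin-associated protein genes, which encode the matrix of the hair shaft, were nearly absent. Of 94 listed KRTAP genes, without those whose symbols mark pseudogenes or antisense genes, 7 had a count, with 50 counts under DMSO and 76 under FIN56. KRTAP4-1 held most of them, with 28 and 71 counts, 0.44 and 1.02 FPKM, a ratio of 2.32 and a counting interval of the count ratio of 1.55 to 3.92. KRTAP2-3 went the other way on 17 and 4 counts. KRTCAP2, a subunit of the oligosaccharyltransferase that shares only the name, had 103.25 and 110.81 FPKM. These genes were chosen after their values were seen.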
